A study of Vitis rotundifolia with 18 samples.

Results

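In ripening muscadine berries, 185 genes of 27228 identifiers (0.679%) had their highest level at maturity by a rule on transcript abundance. The abundance is TPM, a relative level scaled by transcript length and to the same total in every library, and the median was taken over the 6 libraries of each stage, both cultivars together. A gene qualified if its median at E-L 38 was at least 10 TPM and at least 2 times the medians at both E-L 35 and E-L 32, and if its lowest E-L 38 library lay above the E-L 35 median. The same level and fold criteria were met by 232 genes, and 47 of these had an E-L 38 library at or below the E-L 35 median. These values chose the genes, so the rise to E-L 38 is given as a description with no test. The rule set no condition on the change between E-L 32 and E-L 35 or on the differences between cultivars within a stage. The values behind these comparisons did enter the rule.

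The study compared berries of the muscadine grape, Vitis rotundifolia, in 2 cultivars at 3 stages, with 3 RNA sequencing libraries in each of 6 groups. Noble is a dark-skinned and Carlos a bronze-skinned cultivar. The stages follow the E-L scale of grapevine growth: E-L 32 is bunch closure, E-L 35 is veraison, when ripening sets in, and E-L 38 is maturity at harvest. The labels name no treatment, and all berries came from 1 research station. The labels do not say that replicates came from separate vines, so a p-value here reflects no more than how these libraries vary, and that variation may be technical. RNA came from whole berry tissue as far as the labels say, so fewer cells of a type and less RNA per cell cannot be told apart.

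A grape berry ripens in a phase that begins at veraison, when it softens, takes up sugar, loses acid and, in dark cultivars, turns colour. Late in ripening the transcripts of many enzymes of aroma and phenolic metabolism, of cell wall proteins and of stress-related proteins are known to be abundant in grape berries. No gene names accompany the identifiers in the files, and 0 of them occur among the 27334 genes that RefSeq lists for the Carlos assembly, so the genes are given here by identifier and no role is assigned to any of them.

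Some libraries stood apart from their replicates, and the cultivar labels at E-L 38 ran against those of the earlier stages. On the first principal component of the 500 most variable genes (75.7% of their variance), the Noble E-L 32 libraries had scores of -52.5 (replicate 1), -79.1 and -82.9. The Carlos E-L 35 libraries had scores of 46.6, 46.4 and 3.90 (replicate 3). Noble E-L 35 replicate 2 differed from its replicates with a chi-square per degree of freedom of 151 and 148, against 15.9 between those 2 replicates, while its score of 32.0 lay between theirs (48.3 and 22.7). These 3 libraries are called atypical here, a choice made with earlier results of these data known. Carlos-labelled E-L 38 replicate 3 also stood apart, with a chi-square per degree of freedom of 91.6 and 83.1 against 12.1, and is not counted among them. Of 1039 genes that differed between the cultivars in the same direction at both E-L 32 and E-L 35, 732 also differed at E-L 38, and 721 of these (98.5%) did so in the opposite direction. Libraries of maturity are therefore written as Noble-labelled and Carlos-labelled, and no direction between cultivars at E-L 38 is drawn from the labels.

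Together the 185 genes took a small part of the transcript pool at bunch closure and a large one at maturity. Their summed TPM was 5639, 5678 and 5615 in the Carlos E-L 32 libraries and 10173, 5868 and 5888 in the Noble ones. At E-L 35 the sums were 33230, 15731 and 32404 in Noble and 51206, 51658 and 5212 in Carlos. The E-L 38 sums were 78719, 83244 and 72891 in the Noble-labelled libraries and 68435, 67332 and 83527 in the Carlos-labelled ones. All 6 libraries of maturity lay above all 12 earlier libraries, and Carlos E-L 35 replicate 3 lay below every library of bunch closure. As a share of all TPM the genes held 0.564% ± 0.0032 in Carlos and 0.731% ± 0.248 in Noble at E-L 32 (SD, n = 3 each). They held 3.60% ± 2.67 in Carlos and 2.71% ± 0.987 in Noble at E-L 35, and 7.31% ± 0.905 and 7.83% ± 0.519 in Carlos-labelled and Noble-labelled libraries at E-L 38. The 2 members with the highest E-L 38 median made up 28.3% to 43.7% of the sum in a library of maturity, and the first 8 in that order made up 46.0% to 62.7%.

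**Figure D1:**
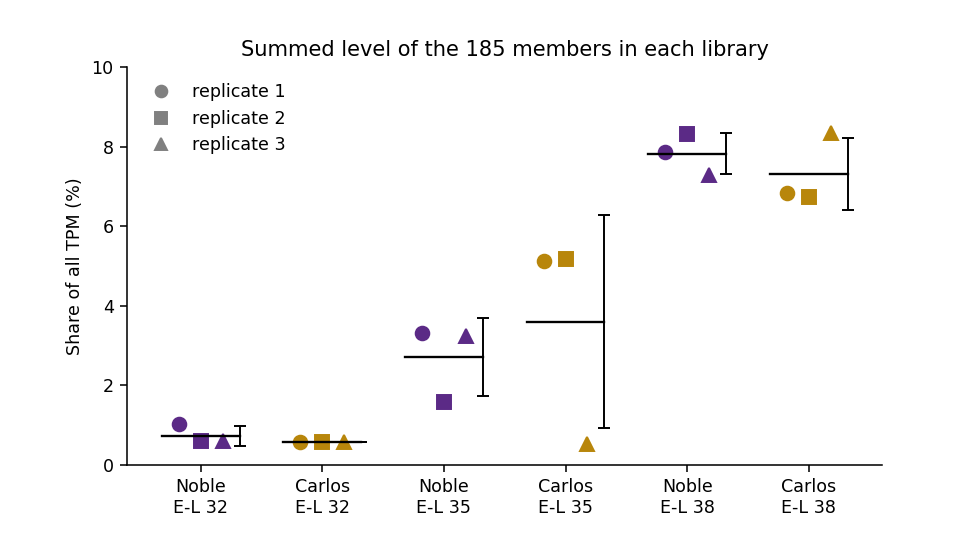
Share of all TPM (%) held by the 185 genes in each of 18 libraries; symbols are replicates, horizontal lines the mean of 3 libraries and error bars the SD. Libraries of maturity lie between 6.73% and 8.35%, and Carlos E-L 35 replicate 3, at 0.521%, lies with the libraries of bunch closure.

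Members covered a wide range of levels. The E-L 38 medians ran from 10.1 to 18040.0 TPM with a middle value of 63.1 TPM, and 70 members reached 100 TPM, 16 reached 1000 TPM and 31 stayed under 20 TPM. Over members, the middle value of the medians was 6.04 TPM at E-L 32 and 17.9 TPM at E-L 35. At E-L 32, 31 members had a median under 1 TPM. The ratio of the E-L 38 median to the higher of the earlier medians ran from 2.002 to 27.8, with a middle value of 2.86. That ratio was at least 3 in 88 members, at least 5 in 32 and at least 10 in 8.

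Being highest at maturity in the pooled medians did not mean that every library of maturity was highest. In 63 members each E-L 38 library lay above each library of both earlier stages. The same held for 187 of the 9154 genes with an E-L 38 median of at least 10 TPM, or 2.04%; the rule used this contrast, so nothing is read from the difference. Taken over all libraries, 181 members had their single highest value at E-L 38. Levels at E-L 38 also spread widely between libraries, with a median coefficient of variation of 40.0% over members, against 14.2% over the 9154 genes. The coefficient covers all 6 libraries, so differences between the labels count in it. The rule used the E-L 38 values, so nothing is read from this difference. Carlos-labelled E-L 38 replicate 3 held the highest of the 6 values for 89 members and lay above both other replicates for 119. Its level was a median of 1.37 times the mean of the other replicates, against 0.956 over the 9154 genes, and nothing is read from this difference either. These counts of members have no share over all genes beside them.

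The rule pools the cultivars, and not every member met its level and folds within each. Using each label as deposited, the level and both folds were met by 122 members in Noble, by 84 in Carlos and by 32 in both. With the E-L 38 libraries set crosswise to their labels, a setting chosen after earlier results were known, 101 members met them against the Noble early stages, 75 against the Carlos early stages and 38 against both. Either way of reading the labels was met by 46 members, and both ways by 24. The median ratio of E-L 38 to E-L 35 was 2.88 in Noble and 1.84 in Carlos as labelled, and 2.39 and 1.94 crosswise. The level and folds were thus met in both cultivars by a minority. A median at E-L 38 that was merely the highest of the 3 stages in both cultivars was found for 114 members as labelled and for 158 crosswise. The set is described here by its pooled rule.

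Membership changed strongly when the atypical libraries were left out together. Carlos E-L 35 replicate 3 lay below both other replicates for 161 of the 185 members and at or below the highest E-L 32 library for 154, and 6 members were listed at 0 in it. Its level was a median 0.254 times the mean of the other replicates over members, against 0.863 over the 9154 genes. Noble E-L 35 replicate 2 lay below both of its replicates for 140 members, at a median of 0.560 times their mean, against 0.994. Noble E-L 32 replicate 1 lay above both of its replicates for 156 members, at a median of 1.38 times their mean, against 0.974. The E-L 32 and E-L 35 values entered the rule, so nothing is read from the differences between members and the 9154 genes. These counts of members have no share over all genes beside them. Without the 3 libraries the rule found 78 genes, and 72 of them (38.9% of the members) were among the 185. Leaving out Noble E-L 32 replicate 1 and Carlos E-L 35 replicate 3, which stood apart on the first component, gave 166 genes with 158 members. Among the sets of libraries left out, the lower count came only where Noble E-L 35 replicate 2 was left out beside these 2. Whether another Noble library of E-L 35 left out in its place would give the same was not tested. Without Carlos E-L 35 replicate 3 alone the rule found 166 genes with 162 members, and without Noble E-L 35 replicate 2 alone 203 with 176. With Carlos-labelled E-L 38 replicate 3 left out beside the 3, it found 79 genes with 63 members. The settings that leave out 2 and 4 libraries were chosen after seeing the data. Of the 113 members that no longer qualified without the 3, 97 missed the fold over E-L 35, 66 had an E-L 38 library at or below the E-L 35 median and 4 missed the fold over E-L 32. Among the 72, 32 also met the level and folds within each cultivar with the E-L 38 libraries set crosswise.

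**Figure D2:**
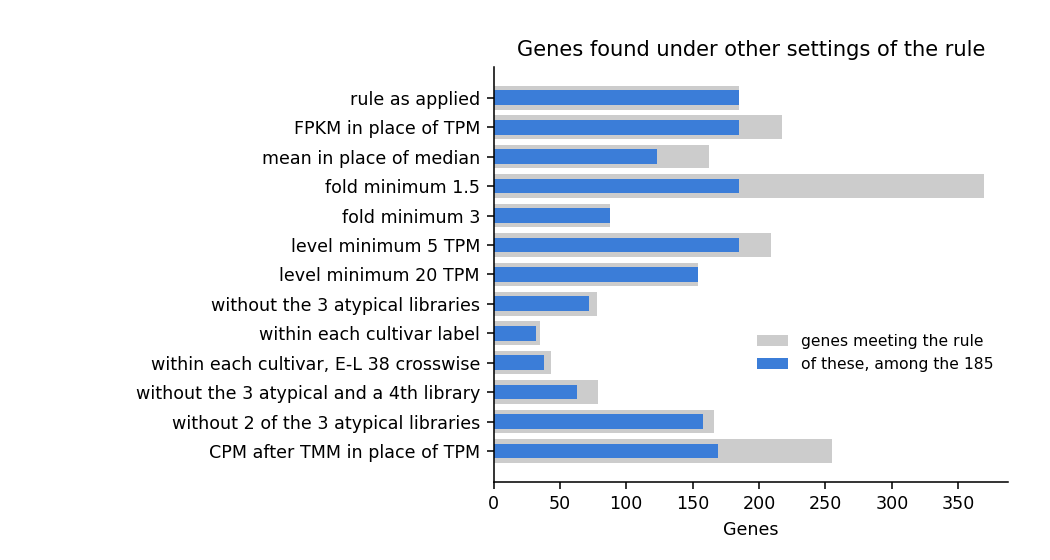
Number of genes that met the rule under other settings (grey bars) and how many of them are among the 185 (blue bars). Leaving out the 3 atypical libraries left 78 genes, and asking for the rise within each cultivar left 35 as labelled and 43 crosswise. The 4th library is Carlos-labelled E-L 38 replicate 3, and the 2 of 3 are Noble E-L 32 replicate 1 and Carlos E-L 35 replicate 3.

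The most abundant member, VIT_05s0049g00520, stood at 17217, 21336 and 12229 TPM in the Noble-labelled and at 18863, 18936 and 15783 TPM in the Carlos-labelled libraries of maturity. At veraison it already stood at 13329, 6318 and 11824 TPM in Noble and at 7710.1, 7719 and 34.0 TPM in Carlos. At bunch closure it stood at 1633, 24.9 and 4.13 TPM in Noble and at 1.17, 1.24 and 3.18 TPM in Carlos. One Noble library of E-L 35 exceeded the lowest library of E-L 38, so the groups of the 2 later stages overlapped. The ratio of the E-L 38 median to the E-L 35 median was 2.34, and 1.85 without the 3 atypical libraries.

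VIT_06s0004g02560 followed at maturity with 10574, 11504 and 13167 TPM in Noble-labelled and 10064, 10502 and 7850.0 TPM in Carlos-labelled libraries. At veraison the Noble values were 2879.5, 522 and 3073 TPM and the Carlos values 9389, 9118 and 20.8 TPM. Carlos replicates 1 and 2 of veraison thus reached the range of maturity, while Noble stood lower in each library. In the 3 Carlos libraries of bunch closure it was listed at 0.240 TPM, against 627, 23.9 and 11.6 TPM in Noble. Its ratio was 3.54, and 1.73 without the atypical libraries.

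VIT_09s0018g01490 stood at 4458, 4201 and 3216 TPM in Noble-labelled and 3098, 2742 and 3407 TPM in Carlos-labelled libraries of maturity. It stood at 2988, 2973 and 5.15 TPM in Carlos and at 819, 283 and 827 TPM in Noble at E-L 35. VIT_12s0059g00490 stood at 2098, 2207 and 3137 TPM in Noble-labelled and at 2432, 2380.3 and 2351 TPM in Carlos-labelled libraries of E-L 38. For this gene the groups of the 2 later stages did not overlap, since the highest E-L 35 library stood at 1328 TPM. It had the largest ratio among the 8 most abundant members, 5.21, and 2.64 without the atypical libraries.

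Among the 8, the labelled groups of maturity did not overlap for VIT_16s0022g00960, VIT_06s0061g00550, VIT_06s0004g02560 and VIT_12s0059g01060. Neither of the first 2 was called between the labels by edgeR (adjusted p of 0.13 for VIT_16s0022g00960 and 0.45 for VIT_06s0061g00550). VIT_16s0022g00960 stood at 3709, 3555 and 4293 TPM in Noble-labelled and at 904, 906 and 2037 TPM in Carlos-labelled libraries. Its Carlos veraison libraries held 3297, 3344 and 163 TPM, and those of Noble 720.2, 308 and 778 TPM. Thus 2 Carlos libraries of veraison exceeded every Carlos-labelled library of maturity. The same held for VIT_06s0061g00550, with 3823, 3871 and 6.08 TPM in Carlos at E-L 35 and 1828, 1660.5 and 1370.4 TPM in Carlos-labelled libraries at E-L 38. Its Noble-labelled libraries of maturity held 5181, 5172 and 2558 TPM. Without the atypical libraries the ratio fell from 3.73 to 1.37 for VIT_16s0022g00960 and from 4.38 to 1.01 for VIT_06s0061g00550. The last ratio comes from a pooled veraison median between unlike groups, since the Noble libraries then in use held 489.7 and 512 TPM, below every library of maturity.

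VIT_01s0010g02460 stood at 2318, 2149 and 2091 TPM in Noble-labelled and at 1939, 1851 and 3939 TPM in Carlos-labelled libraries of maturity. All 6 lay above the highest library of veraison, which held 1455 TPM, and the ratio was 4.64, or 2.23 without the atypical libraries. VIT_12s0059g01060 had a flatter course, from 242 to 476 TPM at bunch closure through 296 to 1122 TPM at veraison to 1037 to 2046 TPM at maturity. Its ratio was 2.34, and 1.86 without the atypical libraries. Of the 8 most abundant members, VIT_12s0059g00490 and VIT_01s0010g02460 still met the rule without those libraries.

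**Figure D3:**
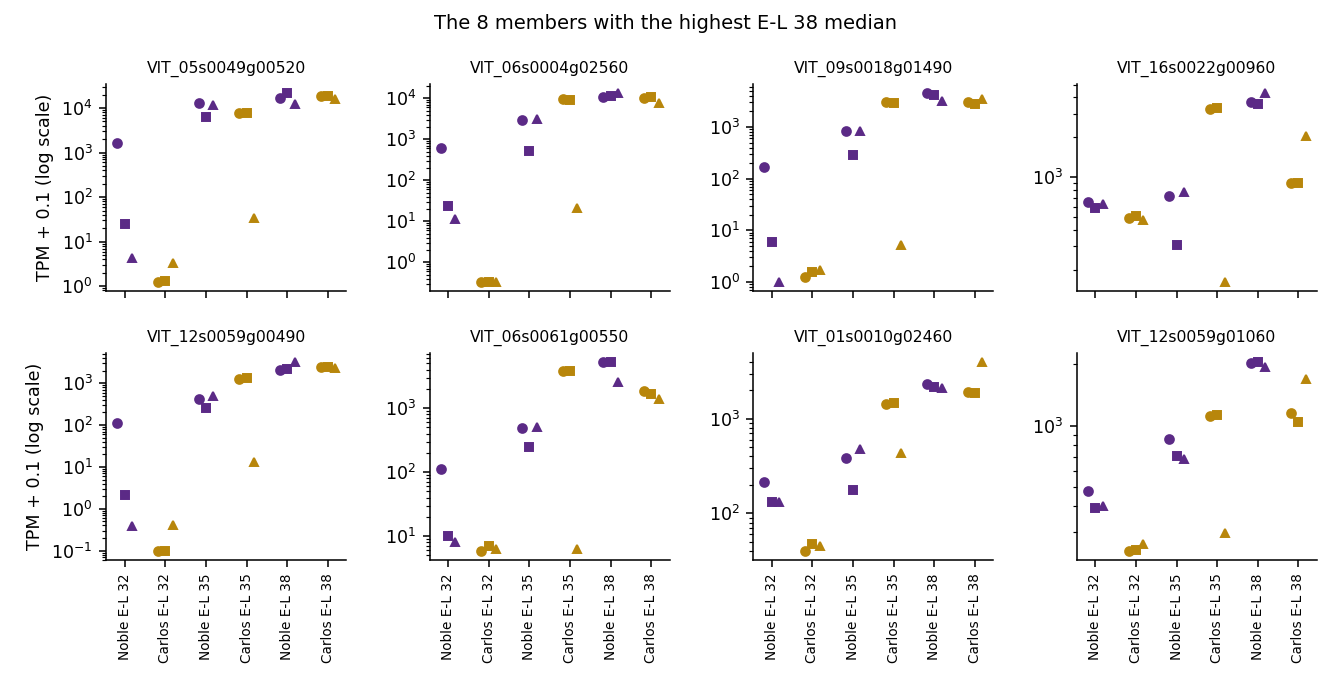
TPM + 0.1 on a log axis of the 8 members with the highest E-L 38 median, in 18 libraries (purple Noble, gold Carlos; circles, squares and triangles are replicates 1 to 3). In each panel Carlos E-L 35 replicate 3 lies below the other Carlos libraries of that stage; for VIT_05s0049g00520 these hold 7710.1, 7719 and 34.0 TPM.

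In several of the 6 members with the largest ratios the pooled medians fell between libraries of very different level. VIT_03s0088g00060 stood at 353, 354 and 317 TPM in Noble-labelled and at 36.3, 33.8 and 37.6 TPM in Carlos-labelled libraries of maturity. At veraison it stood at 164, 160.2 and 7.14 TPM in Carlos and at 5.63, 1.69 and 5.41 TPM in Noble. The 2 higher Carlos libraries of veraison lay above every Carlos-labelled library of maturity. The pooled ratio of 27.8 was the largest of all members, became 5.89 without any 1 Noble-labelled library of maturity and 49.7 without any 1 Carlos-labelled one, and was 2.14 without the atypical libraries.

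VIT_03s0088g00140, which carries the same identifier stem, stood at 169, 178 and 168 TPM in Noble-labelled and at 26.4, 24.9 and 24.5 TPM in Carlos-labelled libraries of maturity. At veraison it held 74.8, 72.8 and 3.39 TPM in Carlos and 4.53, 1.49 and 6.82 TPM in Noble. Its ratio was 17.1, became 4.65 without any 1 Noble-labelled library of maturity and 29.5 without any 1 Carlos-labelled one, and was 2.44 without the atypical libraries. In 16 libraries neither gene had a whole expected count, so part of their reads was divided with other genes, which the files do not name, and their levels are uncertain.

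VIT_03s0063g01330 went the other way, higher in the Carlos-labelled libraries at 669, 634 and 3672 TPM than in the Noble-labelled ones at 96.6, 98.1 and 27.4 TPM. Noble E-L 35 replicate 3 held 80.5 TPM, above the lowest library of maturity. Its highest library of maturity exceeded its lowest 134-fold, the widest spread of all members, and its ratio was 16.6, or 15.9 without the atypical libraries. Leaving out any 1 Noble-labelled library of maturity gave a ratio of 28.7, and any 1 Carlos-labelled one gave 4.44. VIT_16s0098g00860, with whole counts in every library, stood at 702, 704 and 362 TPM in Noble-labelled and at 143, 135 and 103 TPM in Carlos-labelled libraries of maturity. At veraison it held 191, 199.5 and 15.7 TPM in Carlos and 10.3, 11.6 and 15.2 TPM in Noble, and its ratio of 16.3 became 2.44 without the atypical libraries and 9.22 without any 1 Noble-labelled library of maturity.

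VIT_16s0022g01020 was listed at 0 in all 3 Carlos libraries of bunch closure and reached 70.6, 85.0 and 69.6 TPM in Noble-labelled and 32.0, 29.1 and 46.0 TPM in Carlos-labelled libraries of maturity. Its ratio was 11.4, and 3.12 without the atypical libraries. VIT_10s0003g02450 stood at 22.7, 20.7 and 18.9 TPM in Noble-labelled and at 6.72, 4.59 and 30.2 TPM in Carlos-labelled libraries of maturity, with a ratio of 10.6, or 2.81 without the atypical libraries. The ratio of 10.6 became 16.7 without Noble E-L 35 replicate 3 or without Carlos E-L 35 replicate 1 or 2. It became 7.78 without Noble E-L 35 replicate 1 or 2 or without Carlos E-L 35 replicate 3. Of the 6 genes, VIT_03s0063g01330, VIT_16s0098g00860 and VIT_16s0022g01020 still met the rule without the atypical libraries. Expected counts were not whole in 5 of the 6, VIT_16s0098g00860 being the exception.

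Close to the thresholds, genes inside and outside differed little. Just inside the fold minimum, VIT_08s0007g04850 had medians of 14.5, 8.95 and 29.1 TPM at E-L 32, E-L 35 and E-L 38 and VIT_17s0000g02950 had 13.9, 15.4 and 30.9 TPM. Just outside it, VIT_09s0070g00140 had 26.3, 27.2 and 54.4 TPM, a ratio of 1.998, and VIT_04s0023g02450 had 108, 133 and 264 TPM, a ratio of 1.990. Just inside the level minimum, VIT_01s0011g04780 and VIT_03s0091g00670 both had an E-L 38 median of 10.1 TPM. Just outside it, VIT_01s0011g04220 had 9.71 TPM and VIT_08s0007g06030 had 9.44 TPM.

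Most members had begun to rise before maturity. With edgeR over all 17657 tested genes, 148 of the 185 members were higher at E-L 35 than at E-L 32 averaged over cultivars, 2 were lower and 35 did not pass the test. Over all tested genes 62.6% were called, 30.6% higher and 32.1% lower, and the median log2 fold change was 1.79 over members and -0.002 over all tested genes. All 185 had passed the filter on low counts. The rule favours genes with a low E-L 32 or E-L 35 level but sets no order between these stages. Values of both stages entered the rule, so nothing is read from the difference between members and all tested genes. Carlos E-L 35 replicate 3 and Noble E-L 35 replicate 2 were low and Noble E-L 32 replicate 1 was high for most members, and 167 members were called without the 3 libraries.

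The 148 higher members went from a middle value of 4.84 TPM at E-L 32 through 21.6 TPM at E-L 35 to 72.5 TPM at E-L 38. The 35 that did not pass stood at 14.5, 9.54 and 42.6 TPM, and for 25 of them the E-L 35 median lay below the E-L 32 median. These members thus had their lowest middle value at veraison, and none of their steps averaged over cultivars passed the test. The step of some differed between the cultivars by the edgeR interaction given below, with 5 called higher and 3 lower in Noble. In that test 17.6% of all tested genes were called.

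VIT_06s0004g02560 had the highest fitted step, a log2 fold change of 9.25 ± 1.44 (SE, edgeR, adjusted p = 5.4e-05). It rose to 11.15 (adjusted p = 1.5e-05) when Noble E-L 32 replicate 1 was left out and was not called by limma-voom (8.89, adjusted p = 0.078). VIT_10s0003g02510 was listed at 0 in all Carlos libraries of bunch closure and at 40.5, 1.03 and 0.300 TPM in those of Noble. At veraison it held 1258, 1279.6 and 0 TPM in Carlos and 102, 21.7 and 127 TPM in Noble, and at maturity 2049, 1786 and 1214 TPM in Noble-labelled and 704, 620.1 and 726 TPM in Carlos-labelled libraries. The 2 higher Carlos libraries lay far above all of bunch closure, while the third was at 0.

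With the floor of 3 counts over the 3 libraries of the group at 0, VIT_10s0003g02510 was at least 6428-fold higher in Carlos at E-L 35 than at E-L 32. Without Carlos E-L 35 replicate 3 the bound was 9642-fold. Leaving out Carlos E-L 32 replicate 1 gave 3833-fold, the lowest of the 6. Averaged over cultivars the step was called by edgeR (adjusted p = 0.00086) and not by limma-voom (adjusted p = 0.34).

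The 2 members that fell from bunch closure to veraison both stood at low levels at these stages. VIT_04s0023g02240 went from 4.06, 3.65 and 2.79 TPM in Noble and 2.42, 1.67 and 2.97 TPM in Carlos to 1.55, 1.10 and 1.52 TPM and 0.900, 0.860 and 0.690 TPM. The groups did not overlap within either cultivar, and the log2 fold change was -1.06 ± 0.18 (SE, edgeR, adjusted p = 9.4e-05). At maturity it stood at 8.70, 8.94 and 8.65 TPM in Noble-labelled and at 15.9, 11.3 and 12.6 TPM in Carlos-labelled libraries. VIT_01s0026g01380 fell in Carlos from 12.8, 13.8 and 14.3 TPM to 2.37, 2.21 and 0.900 TPM and held 4.31, 4.30 and 4.46 TPM and then 4.37, 1.87 and 8.14 TPM in Noble. At maturity it held 20.7, 23.8 and 43.3 TPM in Noble-labelled and 16.6, 14.9 and 9.17 TPM in Carlos-labelled libraries. Averaged over cultivars its log2 fold change was -1.03 ± 0.32 (adjusted p = 0.011).

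**Figure D4:**
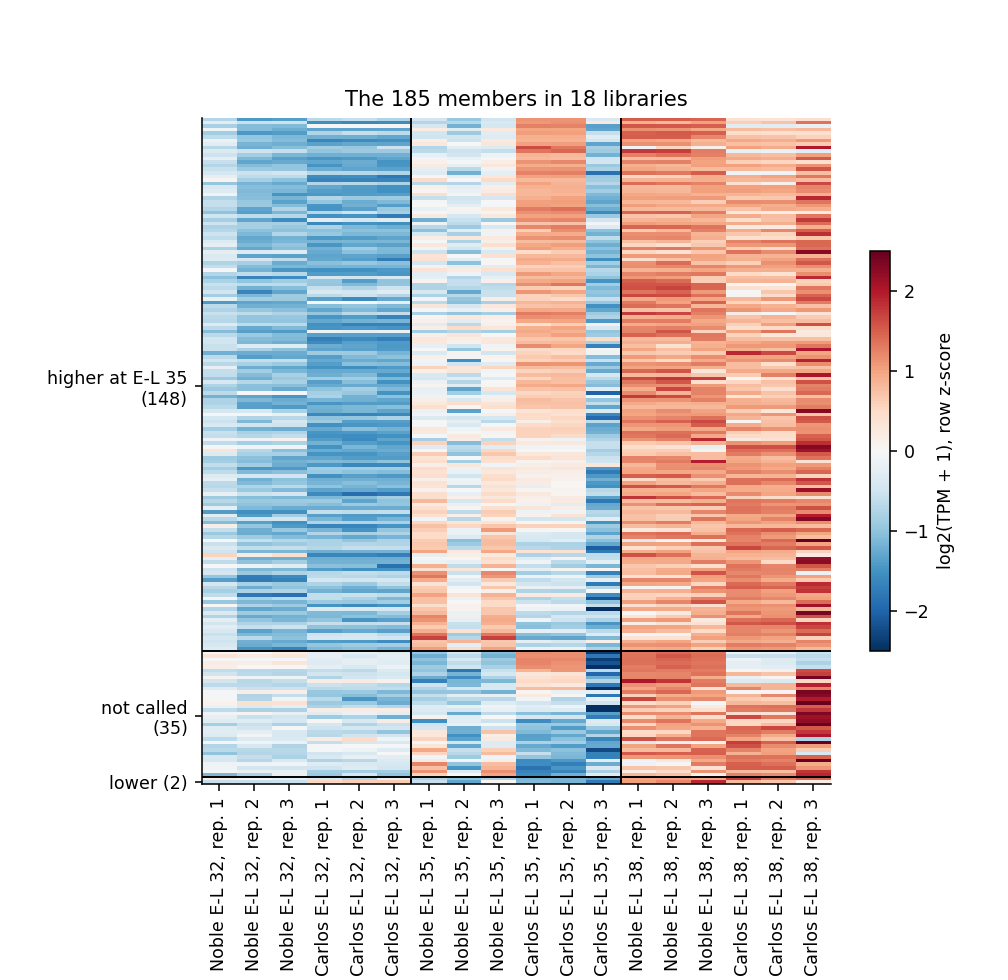
Levels of the 185 members in 18 libraries as log2(TPM + 1), each row scaled to mean 0 and SD 1; rows are grouped by the edgeR call of E-L 35 against E-L 32 (148 higher, 35 not called, 2 lower) and ordered within a group by Carlos replicates 1 and 2 against Noble at E-L 35. Carlos E-L 35 replicate 3 resembles bunch closure in most rows, and the upper rows are red in the other Carlos libraries of veraison and pale in those of Noble.

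At veraison the members differed between the cultivars in both directions. In the edgeR test 58 members were called, 28 higher in Noble and 30 higher in Carlos, or 31.4% of members where 19.0% of all tested genes were called. In the same test 9.75% of all genes were higher and 9.25% lower in Noble. The rule used these E-L 35 values through their pooled median, so nothing is read from the difference in shares. The median log2 fold change of Noble over Carlos was -0.57 over members and -0.02 over all tested genes. The count depended on single libraries: it was 112 without Carlos E-L 35 replicate 3 (23 higher in Noble), 22 without Noble E-L 35 replicate 1, 28 without Noble E-L 35 replicate 3, 33 without Carlos E-L 35 replicate 1 and 31 without Carlos E-L 35 replicate 2. With limma-voom 31 were called, and 2 when only the libraries of this stage were fitted.

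Carlos replicates 1 and 2 of veraison lay above every Noble library of that stage for 103 members (55.7%) and below every one for 35 (18.9%). Over the 9154 genes the shares were 21.4% and 36.7%. The rule asks for a low pooled median at E-L 35, which a gene high in just these 2 of the 6 libraries can meet, and the pair was singled out after replicate 3 was seen to be low, so nothing is read from the difference. For 29 members both of these Carlos libraries lay above the E-L 38 median, a count with no share over all genes beside it. Replicate 3 of the same group, as given above, was low for most members, so the 3 Carlos libraries of veraison do not give 1 level for these genes.

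VIT_02s0025g01360 and VIT_06s0004g04110 were the members with the highest fold in Noble at veraison. The first held 111, 25.1 and 102 TPM in Noble and 10.7, 12.0 and 5.95 TPM in Carlos, and its log2 fold change was 2.90 ± 0.53 (SE, edgeR, adjusted p = 0.0017). The second held 171, 64.1 and 162 TPM in Noble and 21.5, 20.5 and 6.63 TPM in Carlos, which gave 2.88 ± 0.79 on the log2 scale (adjusted p = 0.019). The groups did not overlap for either gene. The call of VIT_06s0004g04110 was lost without Noble E-L 35 replicate 1 (2.67, adjusted p = 0.063) or replicate 3 (2.68, adjusted p = 0.056). With only the libraries of this stage in the fit neither gene was called, at adjusted p = 0.063 for the first and 0.056 for the second.

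On the Carlos side VIT_03s0088g00060, whose values are given above, had the lowest log2 fold change of Noble over Carlos, -4.86 ± 0.95 (SE, edgeR, adjusted p = 0.0028). It was not called by limma-voom (adjusted p = 0.065) or with only the libraries of this stage fitted (adjusted p = 0.093). VIT_11s0016g04920 held 77.0, 82.3 and 151 TPM in Noble and 2251, 2472 and 482 TPM in Carlos, so that even the low Carlos library lay above Noble. The log2 value was -4.21 ± 0.66 (adjusted p = 0.00056), called under all 13 alternatives run. At maturity it held 1540.2, 1404 and 1974 TPM in Noble-labelled and 912, 1126 and 3712 TPM in Carlos-labelled libraries, which overlapped.

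The step from bunch closure to veraison itself differed between the cultivars in 57 members by the edgeR interaction, 39 with a smaller rise or a larger fall in Noble and 18 with the reverse. This was 30.8% of members, where 17.6% of all tested genes were called, 8.91% in the first direction and 8.69% in the second. The E-L 32 and E-L 35 values behind it entered the rule as well, so nothing is read from the difference in shares. Of the 148 members called higher at E-L 35, 36 were among the 39 and 12 among the 18. Without Carlos E-L 35 replicate 3 the count was 111, with 25 in the second direction. It was 31, 34 and 34 without Carlos E-L 32 replicates 1, 2 and 3, and 33 without Noble E-L 35 replicate 1.

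VIT_08s0007g02700 had the highest interaction value. It held 5.13, 3.71 and 2.72 TPM in Noble and 5.25, 6.84 and 6.05 TPM in Carlos at bunch closure, and 8.28, 2.21 and 8.24 TPM against 1.82, 1.31 and 0.150 TPM at veraison. The Carlos libraries thus fell without overlap, while those of Noble overlapped between the stages, and the difference of the steps was 3.09 ± 0.73 on the log2 scale (SE, edgeR, adjusted p = 0.0095). At maturity it held 40.3, 41.8 and 44.6 TPM in Noble-labelled and 59.6, 59.3 and 68.6 TPM in Carlos-labelled libraries, and it met the rule also without the atypical libraries and within both cultivars by either reading of the labels. VIT_10s0003g02510 had the lowest value, with an adjusted p of 0.048. Its fitted size depends on the Carlos group at 0 and is no bound. The call was kept without Noble E-L 32 replicate 2 or 3 or without Carlos E-L 35 replicate 3, and it was lost without any 1 of the other libraries of these stages, with adjusted p from 0.068 to 0.47.

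At bunch closure 34 members differed between the cultivars, 28 higher and 6 lower in Noble. The share of members, 18.4%, was below the 27.5% of all tested genes that were called, 13.8% higher and 13.6% lower in Noble. Among calls of at least 2-fold the order was reversed, at 16.2% of members and 13.3% of all tested genes. Regardless of sign, the median log2 fold change was 0.782 over members and 0.358 over all tested genes. The E-L 32 values entered the rule through their pooled median, so nothing is read from these differences between members and all tested genes. The median log2 fold change was 0.47 over members, or 0.44 with the 10 members that had a group at 0 counts set at their bound, and 0.01 over all tested genes. Noble E-L 32 replicate 1 lay above the other 5 libraries of the stage for 120 members, a count with no share over all genes beside it. The number of called members was 21 without Noble E-L 32 replicate 1 (12 higher in Noble), 21 without Carlos E-L 32 replicate 1 and 20 without Carlos E-L 32 replicate 3.

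VIT_06s0004g02560 had the highest fold in Noble at bunch closure, 9.71 ± 2.18 on the log2 scale (SE, edgeR, adjusted p = 0.0041). It was 5.99 (adjusted p = 0.025) without Noble E-L 32 replicate 1 and was not called by limma-voom (7.43, adjusted p = 0.54). VIT_12s0059g00490 held 112, 2.03 and 0.280 TPM in Noble and 0, 0 and 0.310 TPM in Carlos, where the group held 1 count. The ratio of Noble to Carlos was 439, with a 95% interval of 78.7 to 17325 from that count alone, and 11.6 (2.07 to 456) without Noble E-L 32 replicate 1. It was at least 104 without Carlos E-L 32 replicate 3, 262 without replicate 1 and 305 without replicate 2 of that group. The edgeR call (adjusted p = 0.032) was lost without Noble E-L 32 replicate 1 (adjusted p = 0.63) and without each Carlos library of the stage, with adjusted p from 0.093 to 0.10.

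In the other direction VIT_14s0060g00350 held 17.5, 10.7 and 10.4 TPM in Noble and 72.7, 67.2 and 70.8 TPM in Carlos at bunch closure, with no overlap. Its log2 fold change was -2.57 ± 0.89 (SE, edgeR, adjusted p = 0.043), and the call was lost without any 1 of the 6 libraries, with values from -2.88 to -2.41 and adjusted p from 0.076 to 0.13. VIT_01s0026g01380, given above, was lower in Noble by a log2 fold change of -1.77 ± 0.44 (adjusted p = 0.0079) and was called under all 13 alternatives run.

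At maturity 34 members differed between the labels, 18 higher and 16 lower in the Noble-labelled libraries. This was 18.4% of members, where 23.4% of all tested genes were called, 11.4% higher and 12.0% lower. The rule asked every library of maturity to lie above the pooled veraison median. This limits how low either label can be, so nothing is read from the difference in shares. Among calls of at least 2-fold the order was reversed, at 17.3% of members and 12% of all tested genes. Regardless of sign, the median log2 fold change was 0.645 over members and 0.346 over all tested genes. The count of called members was 18, 17, 22, 20 and 21 without Noble-labelled replicates 1 and 2 and Carlos-labelled replicates 1, 2 and 3. Of the 21 members called at both veraison and maturity, 19 (90.5%) had opposite directions at the 2 stages, as had 97.0% of the 1815 genes called at both over the whole table. Of the 19, 15 were lower in Noble at veraison and higher in the Noble-labelled libraries at maturity, and 4 had the reverse.

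VIT_14s0060g00350 had the highest fold in the Noble-labelled libraries of maturity, with 813, 784 and 731 TPM against 41.3, 41.2 and 49.5 TPM. At veraison it held 32.9, 8.99 and 32.6 TPM in Noble and 503, 489 and 6.56 TPM in Carlos, so the labels with the higher values changed places between the stages. The log2 fold change was -3.88 ± 0.93 at veraison (SE, edgeR, adjusted p = 0.0099) and 4.13 ± 0.94 at maturity (adjusted p = 0.0054). The veraison call was lost with limma-voom (-2.67, adjusted p = 0.14) and with only that stage fitted (adjusted p = 0.20). With all 3 stages called, it was the only such member.

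VIT_06s0009g02920 showed the same change of places, with 59.6, 74.1 and 62.2 TPM in Noble-labelled and 6.34, 6.24 and 5.62 TPM in Carlos-labelled libraries of maturity. At veraison it held 2.58, 5.62 and 2.77 TPM in Noble and 47.9, 47.8 and 0.920 TPM in Carlos. The log2 fold change at maturity was 3.42 ± 0.78 (SE, edgeR, adjusted p = 0.0054), and it was called under all 13 alternatives run, as was that of VIT_14s0060g00350.

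Among members lower in the Noble-labelled libraries, VIT_03s0063g01330 had a log2 fold change of -4.53 ± 1.44 (SE, edgeR, adjusted p = 0.034). The call was lost without Noble-labelled replicate 1 (-4.76, adjusted p = 0.090), replicate 2 (-4.79, adjusted p = 0.088) or replicate 3 (-4.11, adjusted p = 0.11) and without Carlos-labelled replicate 3 (-3.09, adjusted p = 0.13). VIT_08s0007g04860 held 2.17, 2.61 and 3.85 TPM in Noble-labelled and 22.2, 17.8 and 60.2 TPM in Carlos-labelled libraries, with no overlap. The label difference was -3.56 ± 0.48 on the log2 scale (adjusted p = 0.00011), or -2.75 (adjusted p = 0.0002) without Carlos-labelled replicate 3. In the Noble-labelled libraries it stood at the level of bunch closure, where Noble held 3.31, 3.21 and 2.88 TPM.

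**Figure D5:**
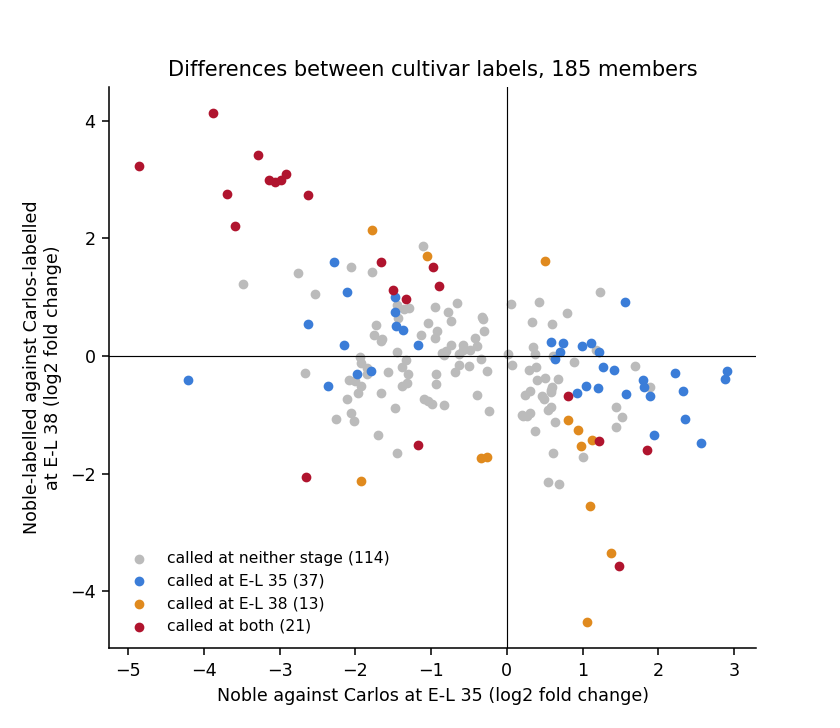
Log2 fold change of Noble over Carlos at E-L 35 (x axis) and of Noble-labelled over Carlos-labelled libraries at E-L 38 (y axis) for the 185 members, coloured by edgeR call. Of the 21 members called at both stages (red), 19 lie in the quadrants with opposite signs.

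Members shared some features that the rule did not use. Their median transcript length was 1166 bases (285 to 6459), against 1461.5 bases over the 9154 genes. Expected counts were not whole in at least 1 library for 55 members (29.7%), against 6.89% of those genes, so some reads of these members were divided with other genes. Among the 32 members with a ratio of at least 5, 18 had such counts, and so had 27 of the 72 that met the rule without the atypical libraries. The 185 identifiers fell on 66 stems, the part before the last number, and 42 stems held at least 2 members.

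Directly following identifiers formed 12 runs with 25 members, and 19 of these had counts that were not whole. The longest run was VIT_12s0057g00140, VIT_12s0057g00150 and VIT_12s0057g00170. The second of these held 62.4, 57.8 and 93.9 TPM in Noble-labelled and 87.0, 68.8 and 156 TPM in Carlos-labelled libraries of maturity, and 29.4, 10.2 and 31.2 TPM in Noble and 96.4, 102 and 4.20 TPM in Carlos at veraison. VIT_12s0057g00170 held at veraison 27.9, 10.2 and 14.7 TPM in Noble and 65.2, 64.0 and 0.760 TPM in Carlos. VIT_12s0057g00140 was the weakest, at 7.76 to 16.4 TPM over the 6 libraries of maturity. All 3 were called higher at E-L 35 than at E-L 32 by edgeR, with adjusted p of 0.0002, 3.6e-05 and 0.00045 in identifier order. Without the atypical libraries their ratios of 3.47, 2.57 and 3.04 became 1.63, 1.22 and 1.41, and none of the 3 met the rule.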

How the data were processed

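Berry RNA was sequenced from directional libraries, per the labels' protocols, and 1 table of gene estimates per library was deposited. The submitters' processing notes name the aligner STAR 2.7.6a and the quantifier RSEM 1.3.3. The build, the annotation and the strand setting are not given in any source used here. Expected counts deposited by the authors divide a read that matches several genes, and they were rounded for all tests. The deposited TPM values carry the rule and all levels printed. FPKM values, also deposited by the authors, served as an alternative. Totals ran from 18919154 to 30843022 rounded expected counts per library.

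The members and the lists of named genes were chosen with earlier results of these data known. Named genes are the 8 members with the highest E-L 38 median, the 6 with the largest ratio, those next to the thresholds, the highest and lowest called members of each comparison and the longest run of identifiers. Further genes are named only as exceptions to a count.

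Tests used edgeR 4.0.16 (quasi-likelihood F test, R 4.3.3) on 17657 genes kept by its low-count filter, with TMM scaling, all 18 libraries, 1 coefficient per group and Benjamini-Hochberg adjustment over all genes (called at adjusted p under 0.05). A standard error is the log2 fold change divided by the root of F. Fits were tested on simulated counts. Alternatives used DESeq2 1.42.0, limma 3.58.1 (voom), other scaling, no filter, a replicate block, fewer groups and left-out libraries. Bounds and intervals cover counting error only.

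Replicate numbers were shared between groups, but same-numbered libraries did not deviate together (r from -0.229 to 0.31, over 0.1 in 5 of 45 pairs), so they were not used as pairs.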

Additional observations from a re-analysis of the deposited data

Results flagged for a closer look

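The change between E-L 32 and E-L 35 differed between Noble and Carlos in 57 members by the edgeR interaction, and each named member among them is given here by the difference of its log2 steps, Noble minus Carlos. The rise was smaller in Noble for VIT_10s0003g02510 (-12.67), VIT_06s0004g02560 (-11.36), VIT_12s0059g00490 (-9.57), VIT_05s0049g00520 (-7.30) and VIT_09s0018g01490 (-7.03). All 5 stood at 3.18 TPM or less in the Carlos libraries of bunch closure, so that their fitted sizes are uncertain, and high in Noble E-L 32 replicate 1, and without that library the values were -8.23, -7.65, -4.34, -1.95 and -2.87, of which only VIT_06s0004g02560 was still called (adjusted p = 0.026). With limma-voom that gene was not called (-7.11, adjusted p = 0.60), nor were the other 4. The 4 lost calls had adjusted p of 0.47, 0.51, 0.49 and 0.32. They were also lost without any 1 Carlos library of E-L 32, any 1 Noble library of E-L 35 or Carlos E-L 35 replicate 1 or 2, with adjusted p from 0.057 to 0.11.

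VIT_11s0016g04920 (-7.25) was called under all 19 alternatives run, and its Noble libraries did not rise, at 178, 109 and 113 TPM and then 77.0, 82.3 and 151 TPM. VIT_01s0010g02460 (-3.52) was likewise called under all 19. VIT_16s0098g00860 (-4.99) was lost with limma-voom, and VIT_06s0009g02920 (-4.08) was lost there and with only the groups compared. VIT_12s0057g00150 (-4.51) was lost with limma-voom and without Carlos E-L 32 replicate 1 (-4.64, adjusted p = 0.053) or replicate 3 (-4.22, adjusted p = 0.059).

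In the other direction VIT_08s0007g02700 (3.09) and VIT_01s0026g01380 (3.004) were called under all 19 alternatives; without Noble E-L 35 replicate 3 the second was 2.33. VIT_02s0025g01360 (2.76) was 3.67 without Noble E-L 32 replicate 1, and its call was lost without Noble E-L 32 replicate 3 (2.44, adjusted p = 0.052) or Noble E-L 35 replicate 1 (2.46, adjusted p = 0.054). It was also lost with limma-voom (2.81, adjusted p = 0.082) and with only the groups compared (2.76, adjusted p = 0.057). Without Carlos E-L 35 replicate 3, which was low for most members, the count of 57 became 111.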

How the results depend on the processing

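The rule found 162 genes with means, 217 with FPKM, 255 with TMM-scaled CPM, 369 at a fold minimum of 1.5, 88 at 3, 209 and 154 at level minimums of 5 and 20 TPM, and 166 to 209 when 1 library was left out. It found 78 without the 3 atypical libraries, 79 without these and Carlos-labelled E-L 38 replicate 3 (chosen after seeing the data), and 35 and 43 within each cultivar as labelled and crosswise. Counts of called members moved by over 1.5 times in these cases. At E-L 32 there were 54 with DESeq2, 12 with limma-voom, 98 with only the groups compared and 70 without the atypical libraries (34 in the main fit, 20 to 31 leaving out 1 library). At E-L 35 the values were 31 with limma-voom, 2 with only the groups compared and 132 without the atypical libraries (58, and 22 to 112). At E-L 38 they were 69 and 97 for the last 2 of these settings (34, and 17 to 27), and for the interaction 17 with limma-voom and 108 without the atypical libraries (57, and 31 to 111). The early step stayed within 118 to 167 members (150, and 144 to 163). The replicate block gave 31, 51, 27, 149 and 42 in the order E-L 32, E-L 35, E-L 38, step and interaction. The causes were not tested. The 65 called values of named members gave 1057 values under alternatives, of which 905 were called, 152 were not and 0 had the opposite sign. Of the 152, 87 came from leaving out 1 library and 33 from limma-voom, and 9 more had no adjusted p in DESeq2. Each group held 3 libraries, and many calls changed when 1 library was left out. Values near 0 counts at E-L 32 are limited by depth.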
